A study of Mus musculus with 23 samples.

Results

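The mouse gene 3110043O21Rik, the ortholog of human C9orf72 and called C9orf72 here, was followed with Smcr8 and Wdr41, which encode the partners of its protein complex. The 3 genes were chosen as the members of this known complex, with earlier results of these data known. They are 3 of 20016 genes listed for cortex and 3 of 19890 listed for spinal cord. All 3 passed a floor of a mean of 0.5 RPKM (reads per unit of gene length and of sequencing depth) in each tissue, among 13865 genes in cortex and 13839 in spinal cord.

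RNA was sequenced from C57BL/6 mice at 6 months of age, for cortex and for lumbar spinal cord. The groups were nontransgenic mice (NTg), F08 mice that carry unexpanded human C9orf72, and F112 mice (F112exp in some labels) that carry the human gene with its repeat expansion. The labels name no change to the mouse gene itself in any group. There were 4 NTg, 4 F08 and 3 F112 libraries in cortex and 4 of each in spinal cord, from 12 mice of which 11 gave both tissues. The title of the series describes the transgenes as BACs, large genomic clones. Each transgene is represented by 1 line, so the line and the repeat expansion cannot be told apart. The promoter, the copy number and the cells that carry transgene RNA, like sex, were not stated. The sources used here also do not say if reads of the human transcript could be assigned to the mouse gene's row.

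C9ORF72 and SMCR8 are DENN-domain proteins that bind each other, and WDR41 joins them to form a stable complex. The complex acts on small GTPases of the ARF and RAB families and takes part in autophagy. WDR41 brings it to the lysosome when amino acids are scarce. In humans, a GGGGCC repeat expansion in an intron of C9ORF72 is a common inherited cause of amyotrophic lateral sclerosis and frontotemporal dementia.

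In the GENCODE M21 annotation of GRCm38, C9orf72 lies on chromosome 4 from 35191285 to 35226175 on the minus strand. Smcr8 lies on chromosome 11 from 60777524 to 60788287 and Wdr41 on chromosome 13 from 94976344 to 95023314, both on the plus strand. Promoter windows of 250 bases before to 50 bases after the RefSeq gene start (GRCm38.p6) were found for 2 of the 3 members. The RefSeq start of C9orf72, at 35225836, lies 339 bases inside the GENCODE gene span, so its whole window is within that span. For Wdr41 both annotations start at 94976344. The windows are shown because C9orf72 and Wdr41 behaved differently across genotypes in cortex, and a link between their letters and that difference was not tested. Capitals mark matches to the motifs searched on both strands, which were GGGCGG (a GC box), GGGGCC (the unit of the human repeat), CACGTG (the core of the lysosomal gene element) and CCAAT.
C9orf72, chr4:35225787-35226086, minus strand: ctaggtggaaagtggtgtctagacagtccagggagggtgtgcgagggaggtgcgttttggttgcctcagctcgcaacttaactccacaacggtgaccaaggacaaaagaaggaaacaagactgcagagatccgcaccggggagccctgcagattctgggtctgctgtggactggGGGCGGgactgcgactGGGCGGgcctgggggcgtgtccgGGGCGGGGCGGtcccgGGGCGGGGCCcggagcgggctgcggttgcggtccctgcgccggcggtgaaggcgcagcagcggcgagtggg
Wdr41, chr13:94976094-94976393, plus strand: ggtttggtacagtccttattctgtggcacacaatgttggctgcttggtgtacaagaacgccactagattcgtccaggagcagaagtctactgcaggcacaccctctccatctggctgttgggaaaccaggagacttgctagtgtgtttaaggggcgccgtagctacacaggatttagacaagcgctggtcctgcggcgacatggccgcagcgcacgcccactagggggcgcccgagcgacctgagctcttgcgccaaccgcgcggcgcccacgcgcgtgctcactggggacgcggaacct
The C9orf72 window held 5 matches to GGGCGG and 1 to GGGGCC, which overlaps one of the former, and 0 to CACGTG and to CCAAT. The Wdr41 window held 0 matches to each of the 4. Among 32851 promoter windows, 35.7% held GGGCGG, 25.0% GGGGCC, 7.15% CACGTG and 37.4% CCAAT. GC content was 67.7% for C9orf72, above 86.8% of promoters, and 60.7% for Wdr41, above 72.2%. A match describes the letters only and says nothing of binding.

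Cortex libraries held 9398450 to 14715900 alignments and cord libraries 28479400 to 38811100. Brain was sequenced by Ion Torrent and cord by Illumina per the labels, and the tissues came as separate tables, so levels set across tissues below were not tested. Cortex identity genes summed to 210 to 389 RPKM in cortex and to 1.47 to 3.35 RPKM in cord, while Hox genes of the cord summed to 80.6 to 104 RPKM in cord and to 0 to 0.644 RPKM in cortex. The labelled tissues thus carried their own markers. In bulk tissue, fewer cells of a type and less RNA per cell cannot be told apart.

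In cortex, the RPKM of the C9orf72 row was lowest in NTg, intermediate in F08 and highest in F112. Any human transgene reads assigned to this row would be counted in F08 and F112, and their part was not tested. The NTg libraries had 3.05, 4.20, 3.44 and 3.05 RPKM. The F08 libraries had 6.98, 5.51, 6.54 and 7.44 RPKM, and the F112 libraries 10.2, 9.54 and 10.7 RPKM. No library of one genotype overlapped another genotype. Group means were 3.43 ± 0.55 (SD, n = 4), 6.62 ± 0.82 (SD, n = 4) and 10.1 ± 0.56 (SD, n = 3) RPKM. Across all kept cortex genes, the level of C9orf72 in a library stood between percentile 30.3 and 68.0.

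**Figure D1:**
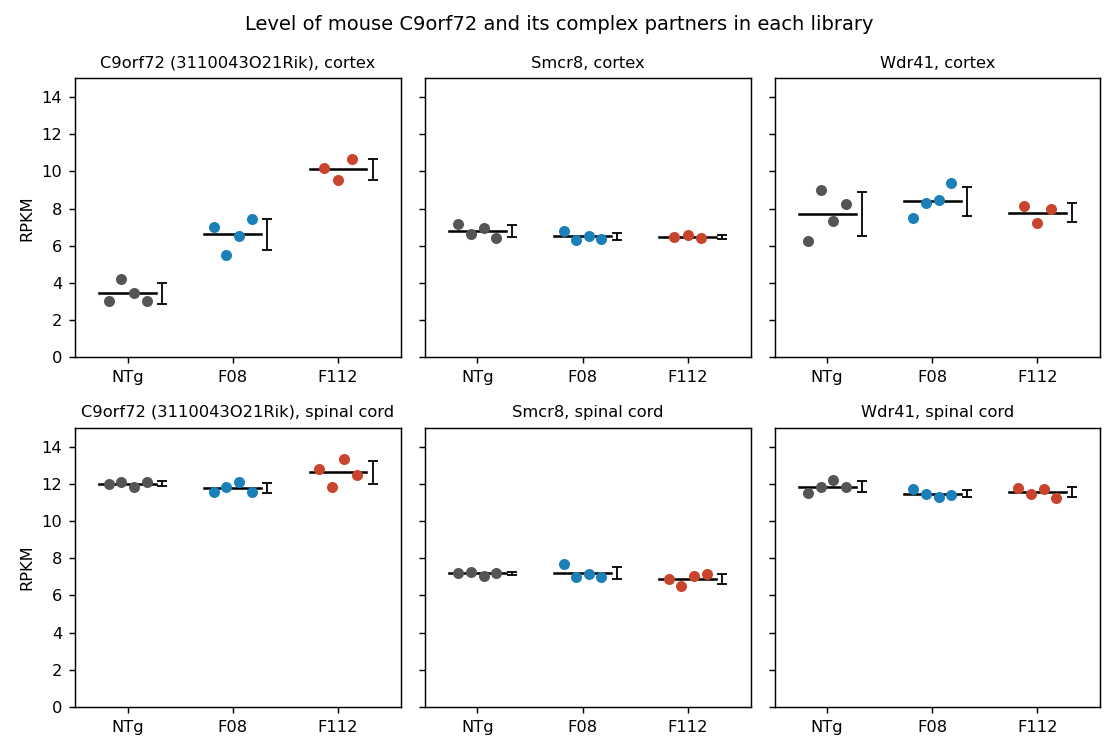
RPKM of C9orf72, Smcr8 and Wdr41 in each library (points) by genotype and tissue, with group means and SD. Cortex C9orf72 has means of 3.43 (NTg), 6.62 (F08) and 10.1 (F112), while the other genes and the cord keep overlapping groups.

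The comparison of F112 with NTg asks about the line with the expanded transgene. C9orf72 was 2.72-fold higher in F112 cortex (95% interval 2.23 to 3.30; log2 difference 1.44, SE 0.129), and passed limma's test with a Benjamini-Hochberg adjusted p of 0.00158. Fold changes are on the log2(RPKM + 0.5) scale, which understates changes of low genes. It was the 1 gene of 13865 called at an adjusted p under 0.05 (0.00721%), so 1 of 3 members was called, and 273 genes had an unadjusted p under 0.05. By size of change it ranked 7 of 13865. Without the 3 cortex libraries that had over 100 RPKM of Ttr, a choroid plexus gene, the log2 difference was 1.38 and the adjusted p 0.0861 in limma. These were the NTg libraries 6322 and 6326 and the F08 library 6320, so fewer NTg libraries remained. Loss of the call thus cannot be told apart from the smaller NTg group.

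F08 against NTg asks about the unexpanded transgene. C9orf72 was 1.81-fold higher in F08 cortex on this scale (log2 difference 0.86, SE 0.119, 95% interval 0.60 to 1.12), but the adjusted p from limma was 0.161. It had the smallest unadjusted p of all genes (1.16e-05 in limma), and 0 of 13865 genes were called (0%), against 362 at an unadjusted p under 0.05. With median-of-ratios scaling the difference was 0.85 and the adjusted p from limma 0.0479.

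Set against each other, the lines differed in cortex C9orf72 by 0.58 on the log2 scale (SE 0.129, 95% interval 0.30 to 0.86), higher in F112, with an adjusted p of 1.00 from limma. Here too 0 of 13865 genes were called (0%), and 342 had an unadjusted p under 0.05. The exact two-sided permutation test gave p = 0.0286 for C9orf72 in each of the 3 cortex comparisons. That is the smallest p it allows, and it was 0.0571 after adjustment over the gene's 6 comparisons. F112 and NTg, F08 and NTg, and F112 and F08 shared no range for 3.05%, 1.69% and 3.57% of all kept genes, and for 1 of 3 members each time.

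C9orf72 was the 1 gene of 13865 (0.00721%) whose cortex libraries lay in the order NTg below F08 below F112 with no overlap. Zfp672, named after its values were seen, was the 1 gene with the opposite order, at 9.50 ± 0.20 (SD, n = 4), 8.93 ± 0.33 (SD, n = 4) and 7.78 ± 0.65 (SD, n = 3) RPKM.

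Smcr8 encodes the DENN-domain partner. Its cortex libraries had 7.15, 6.62, 6.96 and 6.41 RPKM in NTg, 6.78, 6.31, 6.53 and 6.36 in F08, and 6.45, 6.58 and 6.39 in F112. These ranges overlap in all 3 comparisons. The log2 difference of F112 from NTg was -0.06 (95% interval -0.24 to 0.12) and that of F08 from NTg -0.06 (-0.23 to 0.11), each with an adjusted p of 1.00 from limma. Between F112 and F08 the interval ran from -0.18 to 0.18.

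Wdr41 encodes the subunit that links the complex to the lysosome. It had 6.28, 9.01, 7.35 and 8.26 RPKM in NTg cortex, 7.47, 8.30, 8.47 and 9.36 in F08, and 8.15, 7.23 and 7.97 in F112. The genotypes overlap here as well. The log2 difference of F112 from NTg was 0.02 (95% interval -0.25 to 0.29), that of F08 from NTg 0.12 (-0.13 to 0.37) and that of F112 from F08 -0.10 (-0.37 to 0.17), each with an adjusted p of 1.00 from limma. These intervals are wider than those of Smcr8. Changes of either partner within its own intervals could be missed here. A call also had to pass adjustment over all genes, which the C9orf72 difference of 0.86 between F08 and NTg did not.

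In spinal cord the genotypes of C9orf72 overlapped. The NTg libraries had 12.0, 12.1, 11.8 and 12.1 RPKM. The F08 libraries had 11.6, 11.9, 12.1 and 11.6 RPKM, and the F112 libraries 12.8, 11.8, 13.4 and 12.5 RPKM. The log2 difference of F112 from NTg was 0.07 (95% interval -0.01 to 0.15, adjusted p 0.751 in limma), an upper bound far below the cortex difference of 1.44. F08 differed from NTg by -0.03 (-0.11 to 0.05, adjusted p 1.00 in limma) and F112 from F08 by 0.09 (0.01 to 0.18, adjusted p 0.445 in limma).

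For Smcr8 in cord, NTg had 7.22, 7.25, 7.06 and 7.19 RPKM, F08 7.66, 6.97, 7.17 and 7.00, and F112 6.88, 6.52, 7.03 and 7.15. F112 differed from NTg by -0.06 on the log2 scale (95% interval -0.14 to 0.03, adjusted p 0.791 in limma). F08 differed from NTg by 0.00 (-0.09 to 0.09) and F112 from F08 by -0.06 (-0.15 to 0.03, adjusted p 0.662 in limma). Wdr41 had 11.5, 11.8, 12.2 and 11.8 RPKM in NTg, 11.7, 11.5, 11.3 and 11.4 in F08, and 11.8, 11.4, 11.7 and 11.2 in F112. Its F112 against NTg difference was -0.04 (-0.11 to 0.04, adjusted p 0.827 in limma), F08 differed from NTg by -0.05 (-0.12 to 0.03) and F112 from F08 by 0.01 (-0.06 to 0.08). For both partners the genotypes overlapped in cord.

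None of the 3 members was called in cord, where limma called 1 gene for F112 against NTg (0.00723%), 1 for F08 against NTg (0.00723%) and 3 for F112 against F08 (0.0217%). At an unadjusted p under 0.05 these comparisons held 984, 567 and 1435 genes. Groups without overlap made up 3.07%, 4.09% and 5.54% of kept genes in the same order, and 0 of 3 members.

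**Figure D2:**
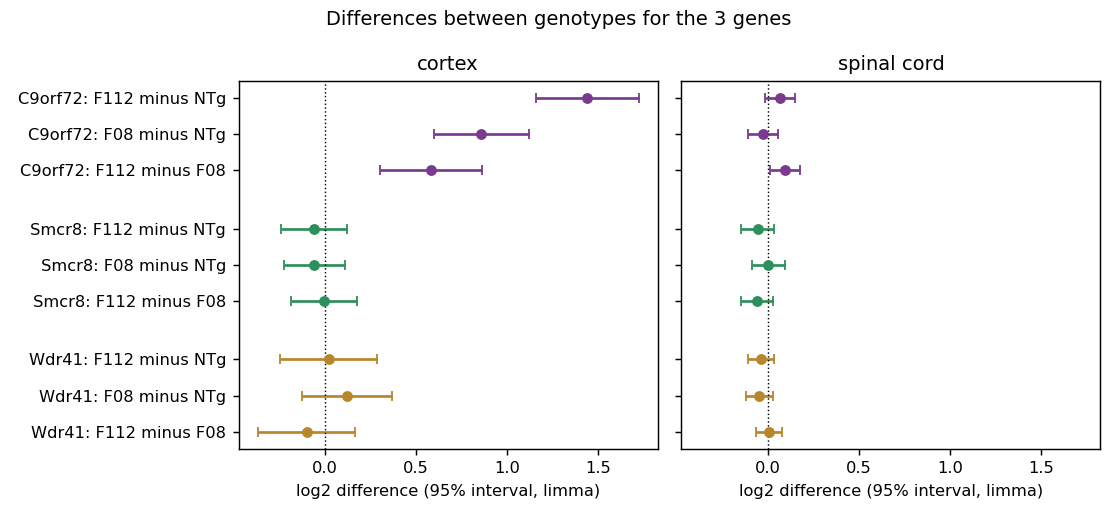
Log2 differences between genotypes with 95% intervals for the 3 genes in cortex and spinal cord, on the log2(RPKM + 0.5) scale. The cortex values of C9orf72 (1.44, 0.86 and 0.58) stand above 0, and the intervals of Smcr8 and Wdr41 include 0.

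Because 11 mice gave both tissues, the cortex value could be set against the cord value of the same animal. For C9orf72 the log2 level in cortex minus that in cord was -1.82, -1.42, -1.65 and -1.83 in the NTg mice. It was -0.69, -1.04, -0.84 and -0.60 in the F08 mice and -0.32, -0.30 and -0.31 in the F112 mice. The gap between tissues was thus widest in NTg and narrowest in F112. Cord levels of C9orf72 differed little between mice, so this order largely repeats that of the cortex levels. The share of all genes whose gaps do not overlap between genotypes was not computed. Such a gap mixes tissue and sequencing platform, but its difference between genotypes cancels what is constant for a gene and table. Human transgene reads, if any were assigned to this row, would be absent in NTg and could differ between platforms. They would then not cancel, and their part was not tested.

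The main fit of tissue differences took 1 spread per gene over both tissues and treated libraries of the same mouse as independent. The within-genotype SD of log2 C9orf72 was 0.163 in cortex and 0.0451 in cord, so the shared spread was below that of cortex. Adjusted p-values of this fit are thus not comparable with those of cortex alone. The F112 against NTg difference of C9orf72 was larger in cortex than in cord by 1.37 on the log2 scale (SE 0.124, adjusted p 3.12e-06 in limma). C9orf72 was the 1 gene of 13101 called (0.00763%). With the mouse as a replicate block the value was 1.37 and the adjusted p 0.00186 in limma. The F08 against NTg difference was larger in cortex by 0.89 (SE 0.119, adjusted p 0.00298 in limma), again for 1 gene of 13101 (0.00763%). With the replicate block its adjusted p was 0.0965 in limma, so it was no longer called. For F112 against F08 the tissues differed by 0.49 (adjusted p 1.00 in limma), and 0 genes were called (0%), with 524 at an unadjusted p under 0.05. Exact permutation of genotypes over mice gave 0.0286 for C9orf72 in all 3, the smallest p possible. For Smcr8 and Wdr41 the exact permutation p ranged from 0.0571 to 0.857.

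**Figure D3:**
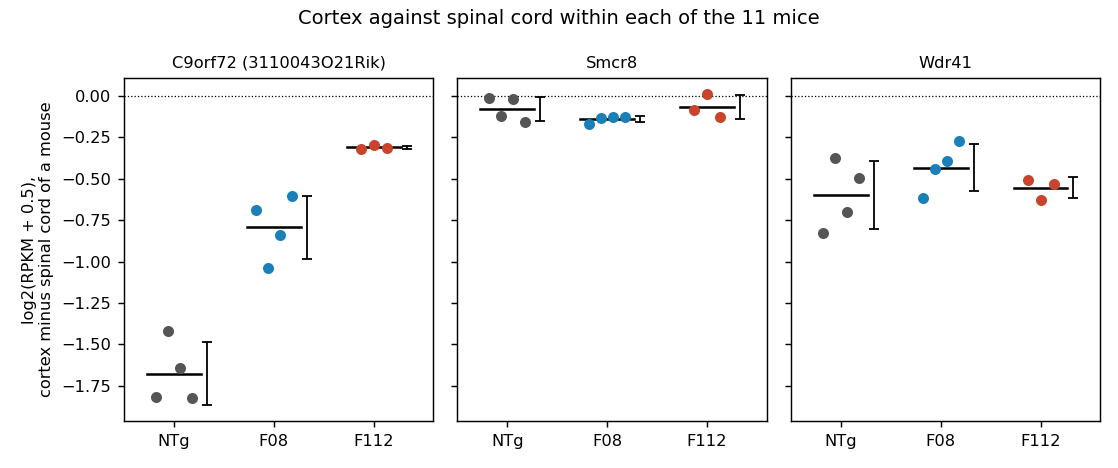
Cortex minus spinal cord level, log2(RPKM + 0.5), within each of 11 mice (points) with group means and SD. For C9orf72 the means are -1.68 (NTg), -0.79 (F08) and -0.31 (F112).

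A ratio of RPKM between genes of one library does not depend on how the library was scaled. The log2 differences of ratios below were taken after adding 0.5 RPKM to each gene, so they are on another scale than the plain ratios and are smaller where C9orf72 was low. In cortex the ratio of C9orf72 to Smcr8 RPKM was 0.508 ± 0.0895 (SD, n = 4) in NTg, 1.02 ± 0.121 (SD, n = 4) in F08 and 1.56 ± 0.109 (SD, n = 3) in F112. The RPKM of the C9orf72 row was thus below that of Smcr8 in NTg cortex and above it in F112 cortex. Any human transgene reads assigned to this row would be part of the F08 and F112 ratios, which was not tested. The log2 differences were 1.503 for F112 against NTg, 0.92 for F08 against NTg and 0.59 for F112 against F08, each with an exact permutation p of 0.0286. With nothing added they were 1.64, 1.01 and 0.62, with the same p. The genotypes did not overlap in any of these, against 3.17%, 1.57% and 3.33% of all genes taken as a ratio to Smcr8.

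The cortex ratio of C9orf72 to Wdr41 was 0.447 ± 0.0529 (SD, n = 4) in NTg, 0.792 ± 0.111 (SD, n = 4) in F08 and 1.30 ± 0.0457 (SD, n = 3) in F112. Its log2 differences of 1.42, 0.74 and 0.68 had an exact permutation p of 0.0286 each and no overlap, where 2.32%, 2.45% and 4.28% of genes had none as a ratio to Wdr41. The ratio of Smcr8 to Wdr41, which leaves C9orf72 out, overlapped between genotypes in cortex at 0.899 ± 0.185 (SD, n = 4), 0.780 ± 0.0947 (SD, n = 4) and 0.835 ± 0.0661 (SD, n = 3).

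In cord the C9orf72 to Smcr8 ratio was 1.67, 1.67, 1.67 and 1.68 in NTg, 1.51, 1.70, 1.69 and 1.65 in F08, and 1.86, 1.81, 1.90 and 1.74 in F112. All F112 libraries were above all others in this ratio. F112 exceeded NTg by 0.12 on the log2 scale (1.09-fold) and F08 by 0.15 (1.11-fold), each with an exact permutation p of 0.0286, adjusted 0.0429 over 3 comparisons. For 4.62% and 3.5% of genes the ratio to Smcr8 did not overlap in these comparisons. Summed meningeal and fibroblast markers also did not overlap between F112 and F08 cord, at 10.9 to 11.9 against 12.2 to 12.99 RPKM, the 1 of 11 marker lists without overlap there, and 0 of 11 were without overlap for F112 against NTg. The F112 library 6325 had 459 RPKM of the ribosomal RNA precursor Rn45s, against 31.5 to 82.6 in the other cord libraries. Without it, F112 exceeded NTg by 0.14 and F08 by 0.17. The part of these markers in the ratio was not tested. The C9orf72 to Wdr41 ratio in cord was 1.01, 1.03 and 1.09 on average in NTg, F08 and F112, with an exact permutation p of 0.0571 for F112 against NTg and 0.0857 for F112 against F08, each 0.129 after adjustment over 3 comparisons.

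**Figure D4:**
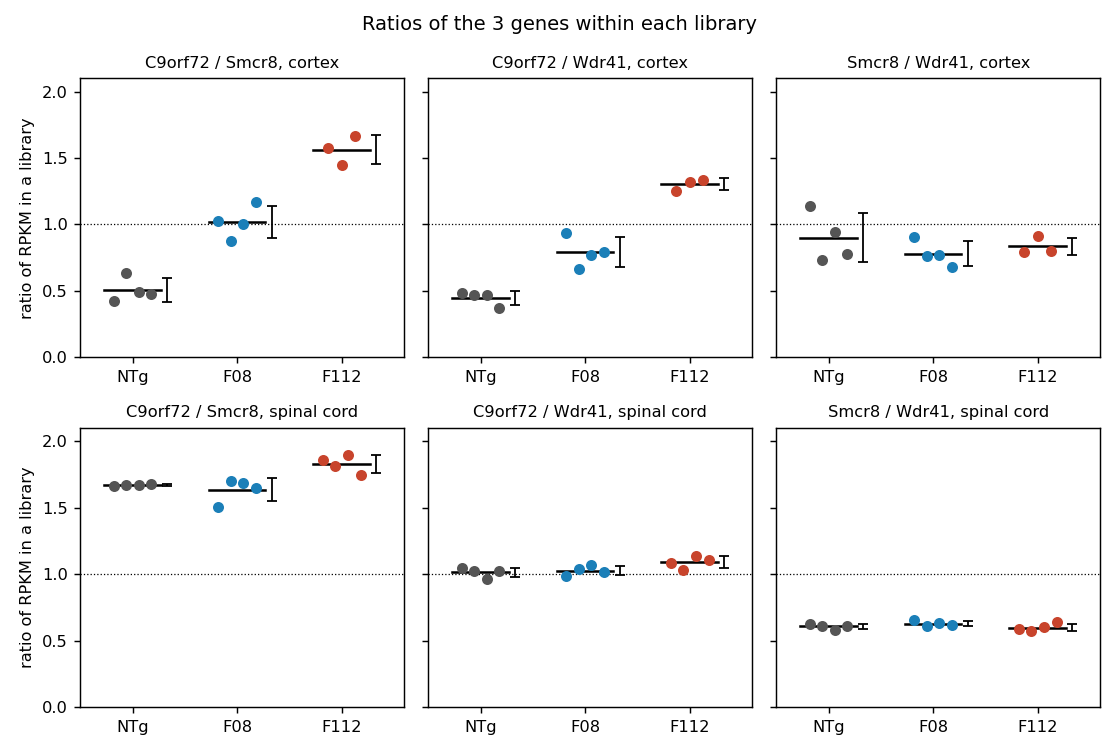
Ratios of RPKM between the 3 genes in each library (points), with group means and SD, in cortex and spinal cord. In cortex the C9orf72 to Smcr8 ratio climbs from 0.508 to 1.02 and 1.56, and the Smcr8 to Wdr41 ratio overlaps between genotypes.

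Within a genotype, the members differed in how much mice varied. The within-genotype SD of log2 level in cortex was 0.163 for C9orf72, 0.157 for Wdr41 and 0.0493 for Smcr8. Genes within 1.5-fold of the level of Smcr8 had a median of 0.184, and 0.143% of those 3487 genes had a smaller SD than Smcr8. For C9orf72 and Wdr41 the share was 37.6% and 38.2%. In cord the SDs were 0.0451, 0.0296 and 0.0470 for C9orf72, Wdr41 and Smcr8, and 13.8%, 1.43% and 8.29% of genes of like level had a smaller one. Smcr8 thus varied least of the members in cortex and Wdr41 in cord.

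The relation of the members to depth and to each other was computed in both tissues, and none of the 12 relations passed adjustment. As deviations from the genotype mean over 11 cortex libraries, log2 alignments and Wdr41 had Pearson's r = 0.78 (exact permutation p = 0.0145, adjusted 0.132 over 12 relations) and Spearman's rho = 0.59 (p = 0.0880). Leaving out the 2 libraries whose depth deviation lay farthest from the median deviation gave r = 0.88. For Smcr8 the values were r = -0.71 (exact permutation p = 0.0457, adjusted 0.183) and rho = -0.52 (p = 0.142), and r = -0.83 without those 2. Smcr8 against Wdr41 had r = -0.83 (exact permutation p = 0.0220, adjusted 0.132) and rho = -0.80 (p = 0.0350), and r = -0.79 without the 2 farthest in Smcr8. For C9orf72 and depth in cortex r was 0.35 (exact permutation p = 0.369) and rho 0.16 (p = 0.681). In the 12 cord libraries these relations had other signs or were near 0. There r was -0.33 for depth and Wdr41 (exact permutation p = 0.350, rho = -0.43, p = 0.231) and 0.36 for depth and Smcr8 (exact permutation p = 0.269, rho = 0.34, p = 0.294). For Smcr8 and Wdr41 in cord r was 0.11 (exact permutation p = 0.747, rho = 0.056, p = 0.871).

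**Figure D5:**
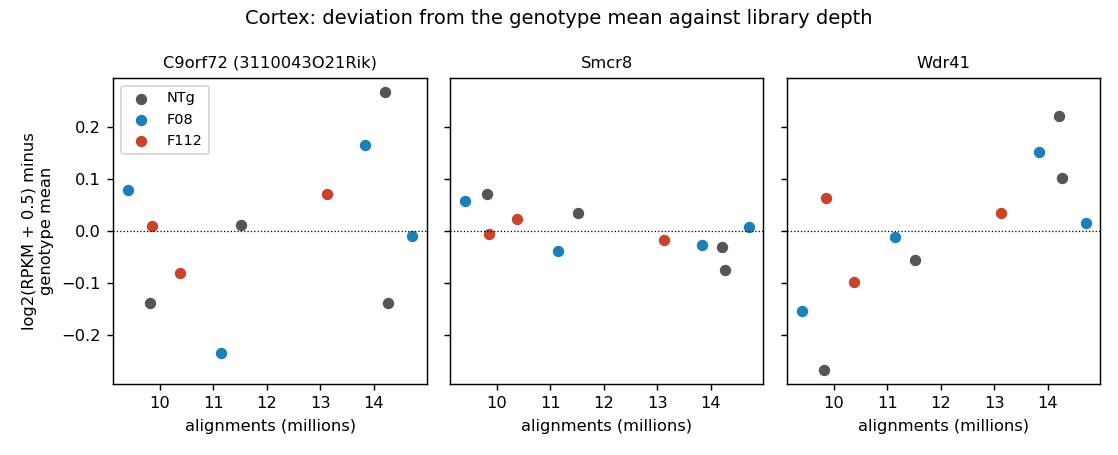
Deviation of each gene from its genotype mean (log2) against the number of alignments in the cortex libraries (points, coloured by genotype). Pearson's r with log2 alignments is 0.78 for Wdr41, -0.71 for Smcr8 and 0.35 for C9orf72, and none passes adjustment over 12 relations (adjusted exact permutation p 0.132, 0.183 and 0.628).

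The C9orf72 difference within classes of cortex libraries is given as values without a test. For F112 against NTg it was 1.45 among libraries above 12000000 alignments, where F112 had 1 library, and 1.47 below. For F08 against NTg it was 0.87 and 0.84. Among libraries with Xist above 5 RPKM, F112 exceeded NTg by 1.34 and F08 exceeded NTg by 0.72, and among the others, where F112 again had 1 library, by 1.58 and 1.00. Both splits divide the F08 and the F112 libraries alike, so they are not separate checks. For Wdr41, F112 against NTg was -0.11 in the deeper class and 0.16 in the other. Summed levels of 11 marker lists of cell types and tissues overlapped between genotypes in all 3 cortex comparisons. The microglial sum was 48.8 to 59.9 RPKM (NTg), 51.0 to 56.3 (F08) and 50.7 to 56.6 (F112), and the myelin sum 568 to 1137, then 999 to 1585 and 720 to 1115. The choroid plexus sum reached 746 in NTg and 755 in F08 but 16.0 in F112. Rn45s was 680 to 1324 RPKM in NTg cortex, 2640, 893, 587 and 862 in F08, and 2203, 2455 and 748 in F112. In the same order of libraries, C9orf72 was 6.98, 5.51, 6.54 and 7.44 RPKM in F08, and 10.2, 9.54 and 10.7 in F112. The part of choroid plexus RNA and of Rn45s in the C9orf72 difference was not tested.

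Genes that work with the complex were taken as 5 lists of 50 genes, of which 48 could be tested in cortex and 50 in cord. They covered the ULK1 complex that starts autophagy, autophagy receptors with TBK1, lysosomal docking and mTORC1 amino acid sensing, the DENN-type FLCN and GATOR1 genes, and ARF and RAB GTPases. Limma called 0 of them in either direction in any comparison of either tissue. At an unadjusted p under 0.05 there were 0, 1 and 0 in cortex and 3, 4 and 7 in cord, for F112 against NTg, F08 against NTg and F112 against F08. Over all genes tested the shares at that level were 1.97%, 2.61% and 2.47% in cortex and 7.11%, 4.10% and 10.4% in cord, and over the lists 0%, 2.08% and 0% in cortex and 6%, 8% and 14% in cord. In cortex F112 against NTg, 27 of 48 lay above 0, and the list medians ran from 0.00 to 0.04 beside -0.02 for all genes.

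The gene with the smallest p in each list for that comparison was not called either. Tfeb, the transcription factor of lysosomal genes, was 1.97 ± 0.17 (SD, n = 4) RPKM in NTg and 2.62 ± 0.42 (SD, n = 3) in F112, a log2 difference of 0.33 (SE 0.160, adjusted p 1.00 in limma). Its F08 level was 3.03 ± 0.68 (SD, n = 4). Rb1cc1, a scaffold of the ULK1 complex, differed by -0.11, the autophagy gene Calcoco1 by -0.13, the GATOR1 subunit Nprl2 by -0.17 and the GTPase Rab7l1 by 0.29.

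Of 9 tested neighbours of C9orf72 on chromosome 4, 0 were called, 3 lay above 0 and 6 below in cortex F112 against NTg, and their median was -0.10. Lingo2, which encodes a neuronal membrane protein, had 4.07 ± 1.01 (SD, n = 4) RPKM in NTg, 3.70 ± 0.39 (SD, n = 4) in F08 and 4.58 ± 0.47 (SD, n = 3) in F112 cortex. Mob3b, the nearer neighbour, was under the floor in cortex, where its libraries ranged from 0.18 to 0.76 RPKM. In cord its F112 against NTg difference was -0.10. Aco1, an iron-responsive aconitase, had the smallest p of the neighbours, with a difference of -0.23 (adjusted p 1.00 in limma).

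Likeness was measured as the root mean square distance in log2 level over 11 cortex libraries, each gene centred on its NTg mean. The nearest genes to C9orf72 were 4933407L21Rik (0.49), Bfsp2 (0.54), 5031434O11Rik (0.55), BC028528 (0.55) and Cpne7 (0.56). Cpne7, which encodes a copine, had 13.05 ± 2.37 (SD, n = 4) RPKM in NTg and 22.6 ± 2.23 (SD, n = 3) in F112. Its F08 level was 17.6 ± 8.11 (SD, n = 4), with libraries from 12.2 to 29.6 RPKM that overlapped both other genotypes. Group means of the other near genes were low, from 0.47 to 2.61 RPKM. Wdr41 ranked 2586 and Smcr8 8416 of 13864 by this distance. The nearest to Smcr8 were Bsg (0.0459) and Scap (0.0472), and to Wdr41 Mbd1 (0.0474) and Ociad1 (0.0509). In cord the nearest were BC005537 and Zfp866 to C9orf72, Vwa8 and Inpp4a to Smcr8, and Nkiras1 and Gnb1 to Wdr41.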

How the data were processed

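The authors deposited 1 table of RPKM per tissue, with alignments per library. The submitters' processing notes name TopHat2 2.0.8b, Partek, mm9 and mm10. Which served which table, strand use and the counting method were not stated in the sources used here. Whole reads could not be recovered from the RPKM values, so no count test was run.

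Log2(RPKM + 0.5) of genes whose mean reached 0.5 RPKM was fitted per tissue with limma 3.58.1 (empirical Bayes with a mean-variance trend) in R 4.3.3, with Benjamini-Hochberg adjustment over all genes and a threshold of 0.05. The fits were tested on simulated data. Tissue differences used 13101 genes kept in both tables. Exact two-sided permutation tests enumerated all arrangements in Python 3.11.15 with numpy 2.4.6, and correlation coefficients used scipy 1.17.1. Members were named in every comparison. Beside them stand called list genes, Mob3b and Lingo2, the gene with the smallest p per list in cortex F112 against NTg, and the nearest genes by distance. Members and lists were chosen with earlier results of these data known. The p-values measure the spread between these mice, except in the main fit of tissue differences. That fit treated libraries of the same mouse as independent. The intervals in the text give the precision reached at each tissue's depth.

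Mouse numbers in the labels pair the tissues of an animal. Same-mouse deviations correlated at 0.0268 to 0.254 across genes, and 4 of 11 cortex libraries were most like the cord library of their own mouse. The pairing thus rests on the labels. Alternatives changed scaling, pseudocount, floor, covariates, weights, blocks or libraries. The classes by depth and Xist and the correlations were added after seeing the data.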

Additional observations from a re-analysis of the deposited data

Results flagged for a closer look

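The effect of genotype on C9orf72 differed between tissues in 2 comparisons. The log2 difference of F112 from NTg was 1.37 larger in cortex than in spinal cord (adjusted p 3.12e-06 in limma, 0.00186 with the mouse as a replicate block). The difference of F08 from NTg was 0.89 larger in cortex (adjusted p 0.00298 in limma, 0.0965 with the mouse as a replicate block). Tissue, sequencing platform and any human reads in the row cannot be told apart, and their part in these values was not tested. For the 3 genes, no library was flagged as an outlier in the 15 groups of 4 libraries that were tested. The rule compared the gap at either end of a group with the group's range. In groups this small it flags only extreme values. The F112 cortex groups, with 3 libraries each, were not tested.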

How the results depend on the processing

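C9orf72 kept its direction in cortex in every alternative and leave-out. F112 against NTg ran from 1.33 to 1.54 over alternatives and from 1.39 to 1.53 with each library left out, where it passed each time. It lost the call at 1.38 without the libraries rich in Ttr (adjusted p 0.0861 in limma), which also made the NTg group smaller. F08 against NTg gained a call at 0.85 with median-of-ratios scaling, and the tissue difference of F08 against NTg lost its call at 0.89 with the replicate block.

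Values near 0 changed sign. Wdr41 in cortex F112 against NTg was -0.038 with array weights and -0.14 without Ttr-rich libraries, and F08 against NTg was -0.046 without them. Smcr8 in cortex F112 against F08 was 0.0179 with median-of-ratios, 0.0222 with quantile scaling and 0.0011 with array weights. In cord F08 against NTg it was -0.0018, -0.0117 and, with log2 alignments as a covariate, -0.026. Its tissue difference of F112 against NTg was 0.010059 with the replicate block and 0.00068 with median-of-ratios.

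With each library left out, Smcr8 ran from -0.0167 to 0.0155 (cortex F112 against F08), -0.0252 to 0.0175 (cord F08 against NTg) and -0.0421 to 0.0154 (tissue difference, F112 against NTg). Wdr41 ran from -0.0697 to 0.0934 (cortex F112 against NTg), -0.00029 to 0.0218 (cord F112 against F08) and -0.0202 to 0.13 (tissue difference, F112 against NTg).

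Counts of called genes over the whole table moved too. Cortex F08 against NTg (0) became 1 with median-of-ratios and 3 without Ttr-rich libraries. Cord F08 against NTg (1) became 2 with array weights or Xist and 0 with alignments. Cord F112 against F08 (3) became 1 with no floor, a floor of 5 RPKM, the compared groups alone or robust estimation, and 6 with array weights or Xist. Cord F112 against NTg (1) became 0 under 8 of the alternatives. The tissue difference of F08 against NTg (1) became 0 with the replicate block. With a library left out, the counts ran 1 to 2 (cortex F112 against NTg), 0 to 1 (cortex F112 against F08), 0 to 2 (cord F112 against NTg), 1 to 4 (cord F112 against F08) and 1 to 2 (both tissue differences against NTg). The cause was not tested.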
